A study of Mus musculus with 6 samples.

Results

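The 10 genes described here encode surface proteins by which bone marrow stromal cells and pericytes are commonly recognised: Ly6a, Thy1, Eng, Pdgfra, Pdgfrb, Cspg4, Mcam, Cd44, Alcam and Cd200. They were chosen by name, and every non-control probe that the array files give one of these 10 gene names was taken. This gave 21 of the 56605 different non-control probes, and 10 of 37074 gene names. The cells came from wild-type (WT) mice and from mice with a knockout (KO) of the long non-coding RNA gene NONMMUT002667, with 3 samples of each. No probe carries the name of that gene, so the knockout itself was not checked here. Cells sorted from collagenase-digested, crushed femurs as Sca-1+ CD29+ CD45- CD11b- were grown to the first passage, and each RNA sample was hybridised in 1 colour to 1 Agilent array. All 6 samples are labelled male, and the strain, the age, the way the gene was deleted and the number of animals behind a sample are not given in the sources used here. The p-values therefore measure the spread between these 6 samples only.

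Stromal progenitors of the marrow lie around blood vessels, and much of what defines them by flow cytometry is shared with pericytes, the mural cells that wrap capillaries. Ly6a (Sca-1) and Thy1 (CD90) are anchored to the membrane by a lipid. Eng (CD105) is a co-receptor for ligands of the TGF-beta family, and the PDGF receptors Pdgfra and Pdgfrb are tyrosine kinases that carry growth signals to mesenchymal cells and mural cells. Cspg4 (NG2) is a membrane proteoglycan of pericytes, while Mcam (CD146), Cd44, Alcam (CD166) and Cd200 act in adhesion and in contact with immune cells. None of these proteins belongs to stromal cells alone: macrophages carry Cd44, and endothelium carries Eng and Mcam.

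Levels are log2 values of the processed signal, relative to the 75th percentile of each array's non-control probes, so a level of 0 is the 75th percentile, and differences are KO minus WT on that log2 scale. Between 54.3% and 56.7% of spots were well above background on the WT arrays, and between 49.0% and 53.0% on the KO arrays. All 6 arrays lay on 1 slide. The WT arrays filled slide row 1 and the KO arrays slide row 2, so slide row and group cannot be told apart. Xist, a transcript of the inactive X chromosome, was well above background on WT replicate 3 (-0.53) and KO replicate 1 (-0.36) and between -6.84 and -5.86 on the other 4 arrays, against a label of male for all. Results for Thy1, the RefSeq probe of Cspg4, Alcam, Cd200 and the bone matrix gene Ibsp are therefore also given without those 2 arrays. The sort markers were checked against the arrays: Itgb1 (CD29) lay between 5.22 and 5.58, while Ptprc (CD45, 3.24 to 3.75), for which the cells had been sorted negative, was also well above background on all 6 arrays. Itgam (CD11b), the other antigen sorted against, has a bright probe (3.92 to 4.23) that holds a long GT or AC repeat and a dim one (-2.86 to -2.05), both well above background on all 6 arrays. Signals of bulk RNA do not tell fewer cells of a type from less RNA per cell.

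No member passed the test. Of the 21 probes, 17 could be tested, and 0 of them had a limma adjusted p under 0.05, where 0.0594% of all 28607 tested probes did. At an unadjusted limma p under 0.05 there were 6 of the 17, beside 15.5% of all tested probes. These were 3 probes of Alcam, 2 of Cspg4 and 1 of Cd200, and probes of 1 gene are not independent. With the 10 members taken at their brightest tested probe, 1 was higher and 2 were lower at that p, beside 14.8% of all genes. The KO values lay wholly above the WT values for 4 probes (3 of Alcam and the 1 of Mcam), and 12.6% of all tested probes did so. They lay wholly below for 4 others (2 each of Cspg4 and Cd200), beside 9.57% of all tested probes. The groups of the remaining 9 probes overlapped. The difference had a median of 0.02 over the 17 probes and of 0.02 over all tested probes. Of the 17 probes, 3 passed the filter only through the WT arrays (those of Thy1, of the Cspg4 clone AK220559 and of the Pdgfra clone AK145097), so these counts are descriptions.

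**Figure D1:**
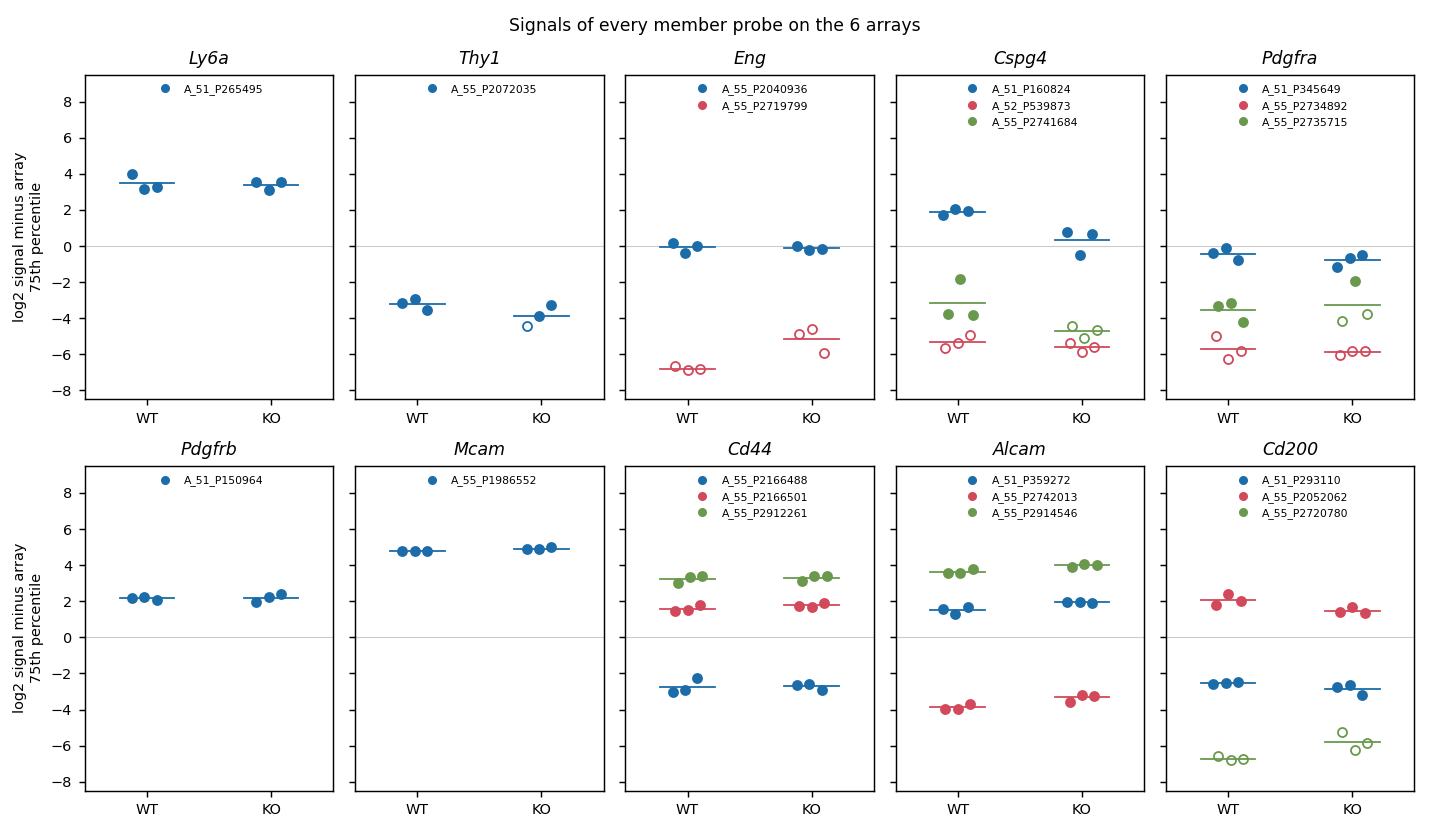
Level of every member probe on each array (vertical axis, log2 processed signal relative to the 75th percentile of the array), grouped by WT and KO, with 1 colour per probe within each panel, filled points well above background, open points not, and horizontal lines at the group means. The KO points lie wholly below the WT points for the Cspg4 probe A_51_P160824 and wholly above them for all 3 tested Alcam probes.

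Ly6a encodes Sca-1, one of the antigens used to sort these cells. Its single probe (A_51_P265495, mm9 chr15:74825553-74825612, minus strand) read 4.02, 3.14 and 3.29 in WT and 3.56, 3.08 and 3.55 in KO. WT replicate 1 was the highest and KO replicate 2 the lowest array, and the groups overlapped. The difference was -0.09 (SE 0.25, n = 3 per group, limma adjusted p = 0.911), with a 95% interval of -0.69 to 0.52. The neighbouring family members Ly6c1 and Ly6c2 had the same extremes, with WT replicate 1 highest (4.93 for Ly6c1 and 4.94 for Ly6c2) and KO replicate 2 lowest (3.91 and 3.95). Genes of this family are near-identical in places, and cross-hybridisation between their probes was not tested. The stretch of the Ly6a probe below shows which bases were measured and is from the deposited files, bases 31 to 60 of the probe, 5′ to 3′.
Ly6a A_51_P265495: agtgtgtgaaataccatgttttgcctttat

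Thy1 encodes CD90, a surface glycoprotein of fibroblasts, stromal cells and T cells. Its probe (A_55_P2072035, mm9 chr9:43856591-43856650, plus strand) read -3.14, -2.96 and -3.53 in WT and -4.45, -3.90 and -3.24 in KO. These signals were near background, and KO replicate 1 was not well above it. The groups overlapped through KO replicate 3, and the difference was -0.65 (SE 0.31, 95% interval -1.39 to 0.08, limma adjusted p = 0.374). Leaving out KO replicate 1 gave -0.36, leaving out KO replicate 3 gave -0.96, and leaving out the 2 arrays with Xist signal gave -0.52. The end of the probe is shown with the hexamer AATAAA, the usual polyadenylation signal, in capitals (bases 31 to 60, searched on the probe's own strand). That hexamer stood in 9.77% of all 56605 probes.
Thy1 A_55_P2072035: aggaaagaaaactgcacAATAAAaccaagc

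Among the other Ly6 family genes, which share the three-finger fold, 13 of 24 could be tested and 9 of them had a lower mean in KO. The list's median difference was -0.10, beside 0.02 over all genes taken at their brightest tested probe, and it was 0.04 without WT replicate 1. By limma, 0 of its genes were called, with 1 of the 13 at an unadjusted p under 0.05, beside 14.8% of all genes. That gene was Cd59a, an inhibitor of the complement membrane attack complex. It read -0.19, -0.12 and 0.18 in WT and 0.73, 0.74 and 0.71 in KO, and the groups did not overlap. The difference was 0.77 (SE 0.11, limma adjusted p = 0.0689). Of the family members named beside Ly6a, Ly6c1 differed by -0.22, Ly6c2 by -0.19 and Ly6e by 0.02, and all 3 overlapped between the groups.

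Eng encodes endoglin, which binds BMP9 and BMP10 and presents TGF-beta family ligands to their kinase receptors. The probe of its RefSeq transcript (A_55_P2040936, mm9 chr2:32537268-32537327, plus strand) read 0.17, -0.36 and 0.01 in WT and 0.02, -0.22 and -0.16 in KO. All KO values lay inside the WT range. The difference was -0.06 (SE 0.15, 95% interval -0.42 to 0.30, limma adjusted p = 0.891). A second Eng probe 31.4 kb away gave no signal well above background. Of 12 receptor and ligand partners of endoglin, 10 were tested, and 7 had a higher and 3 a lower mean in KO. For none of the 10 did the groups separate, where they did for 22% of all genes at their brightest tested probe. The median difference of the 10 was 0.06 and their lowest limma adjusted p was 0.571, for Tgfb3 (difference 0.18), a TGF-beta ligand. By limma, 0 of the 10 had an adjusted and 0 an unadjusted p under 0.05, beside 14.8% of all genes for the latter. The circulating ligand genes Gdf2 and Bmp10, which encode BMP9 and BMP10, were well above background on at most 0 and 2 arrays and were not tested.

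Pdgfra encodes the receptor that binds several PDGF chains and marks mesenchymal progenitors. Its RefSeq probe (A_51_P345649, mm9 chr5:75593888-75593947, plus strand) read -0.38, -0.13 and -0.80 in WT and -1.16, -0.69 and -0.52 in KO. WT replicate 3 was lower than 2 of the KO arrays. The difference was -0.35 (SE 0.22, 95% interval -0.89 to 0.18, limma adjusted p = 0.512). A probe of the clone AK145097, 14.5 kb away, was well above background on all WT arrays and on KO replicate 2 alone of the KO arrays. KO replicate 2 was also the highest of the 6 there, at -1.91, while the other 5 lay between -4.21 and -3.14. The difference at this clone was 0.30 (SE 0.59, limma adjusted p = 0.861), and it turned to -0.38 without KO replicate 2 and to -0.03 without WT replicate 3.

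Pdgfrb, the receptor through which PDGF-B recruits mural cells to vessels, lies on another chromosome (A_51_P150964, mm9 chr18:61244595-61244654, plus strand). It read 2.19, 2.22 and 2.09 in WT and 1.93, 2.22 and 2.40 in KO. The lowest and the highest of the 6 values were both KO arrays. The difference was 0.02 (SE 0.13, limma adjusted p = 0.966), and its 95% interval of -0.29 to 0.33 bounds the change that this design could have missed.

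The PDGF ligand genes and Pdgfrl, a gene with a receptor-like product, were read beside the receptors. All 5 were tested, 4 had a lower mean in KO, and the list's median difference was -0.43. Genes with a lower mean in KO made up 44.3% of all genes at their brightest tested probe. By limma, 0 of the 5 passed (0.0627% of all genes did) and 3 had an unadjusted p under 0.05 (14.8% of all genes did). For those 3 every KO value lay below every WT value, beside 10.1% of all genes. Pdgfa, the main ligand chain of Pdgfra, read 4.70, 4.98 and 4.76 in WT and 4.38, 4.34 and 4.42 in KO, a difference of -0.43 (SE 0.09, limma adjusted p = 0.116). Pdgfc, another Pdgfra ligand, differed by -0.53 (SE 0.15, limma adjusted p = 0.190), and Pdgfrl by -0.99 (SE 0.26, limma adjusted p = 0.155). Pdgfb, the ligand of Pdgfrb, overlapped between the groups at a difference of 0.21.

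Cspg4 had the largest difference of the members. Its product NG2 is a transmembrane chondroitin sulfate proteoglycan that binds PDGF-AA and collagen VI and marks pericytes. The RefSeq probe (A_51_P160824, mm9 chr9:56746627-56746686, plus strand) read 1.73, 2.05 and 1.91 in WT and 0.80, -0.48 and 0.69 in KO. All KO values lay below all WT values, and KO replicate 2 stood lowest. The group means were 1.90 ± 0.16 and 0.33 ± 0.71 (SD, n = 3 each). The difference of -1.56 (SE 0.33, 95% interval -2.36 to -0.77) is a 2.96-fold lower level in KO, and it missed the threshold (limma adjusted p = 0.110). The probe ranked 646 of the 28607 by p. The difference was -1.16 without KO replicate 2, with the lowest limma adjusted p of the alternatives (0.0555). Without the 2 arrays with Xist signal it was -1.79 (limma adjusted p = 0.232).
The bases below, 1 to 30 of the probe, identify the transcript stretch behind these values.
Cspg4 A_51_P160824: ctgacccagaactattgcagttttgccgga

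The other tested Cspg4 probe, of the clone AK220559 2.69 kb away, read -3.78, -1.84 and -3.80 in WT while its KO signals (-4.41, -5.08 and -4.66) were all not well above background. Only a bound can be given for it. With each KO array taken at its lowest signal well above background or the probe's own, whichever was higher, the level in KO was at least 1.71-fold lower. The bound rested on WT replicate 2, the highest array, and was 1.09-fold without it, where the fitted difference went from -1.58 to -0.93. The fitted difference on the signals as measured had a limma adjusted p of 0.240. A probe of AK052394 was not well above background on any of the 6.

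Mcam encodes CD146, an adhesion molecule of endothelium, pericytes and a stromal subset. Its probe (A_55_P1986552, mm9 chr9:43950664-43950723, plus strand) read 4.81, 4.79 and 4.79 in WT and 4.91, 4.87 and 4.98 in KO. Every KO value was above every WT value, by a small amount. The difference was 0.12 (SE 0.07, 95% interval -0.04 to 0.29, limma adjusted p = 0.460). The probe is unlike the other member probes in sequence: it holds an unbroken GT repeat of 20 bases, in capitals below (bases 10 to 39 of the probe). The longest such dinucleotide run in any other member probe was 6 bases.
Mcam A_55_P1986552: tttgagGTGTGTGTGTGTGTGTGTGTatac

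Probes with a GT or AC run of at least 16 bases, searched on the probe's own strand, made up 0.189% of all 56605, and no 2 of them had the same gene name. They were well above background on all 6 arrays in 99.1% of cases, beside 45.2% of all probes. Of the 106 tested, 104 had a higher mean in KO, 44 (41.5%) had all KO above all WT values, and the median difference was 0.10, with quartiles of 0.0715 and 0.117. By limma, 0 of the 106 were called. The Mcam difference of 0.124 lay just above the upper quartile of 0.117. Whether the Mcam signal comes from Mcam RNA or from other RNA with the repeat was not tested, and the array holds 1 Mcam probe.

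**Figure D2:**
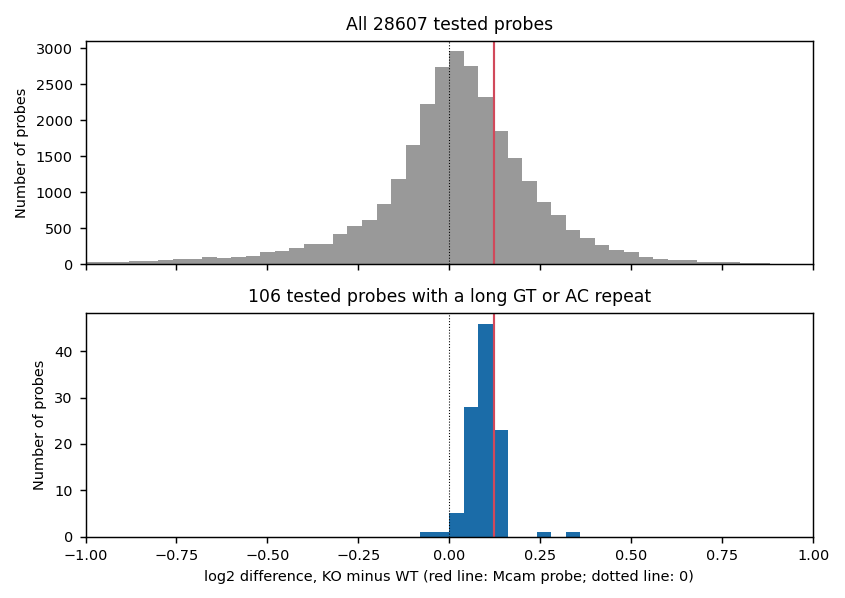
Number of tested probes (vertical axis) by log2 difference, KO minus WT (horizontal axis, drawn from -1 to 1), for all 28607 tested probes (grey) and for the 106 with a long GT or AC repeat (blue). The red line is the Mcam probe at 0.12, close to the median of 0.10 of the repeat probes, and 396 of the 28607 probes differed by 1 or more in size.

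Of 22 other genes of pericytes and mural cells, 15 were tested, 8 had a lower and 7 a higher mean in KO, and the median difference was -0.0015. Among the contractile genes, Acta2, smooth muscle actin, lay between 6.86 and 7.09 (difference 0.06), and Tagln, an actin-binding protein, between 6.37 and 6.75 (difference 0.10), while Myh11, smooth muscle myosin, lay between -3.91 and -3.43 (difference -0.16). The groups overlapped for all 3. The markers Rgs5, Abcc9, Kcnj8 and Vtn were well above background on 0 arrays. Of the 15 tested genes, however, 13 were well above background on all 6 arrays. Among these were Notch3 (1.32 to 1.61), Nes (1.25 to 1.90) and the contractile gene Cnn1 (3.64 to 4.14). By limma, 0 of the 15 passed and 3 had an unadjusted p under 0.05, beside 14.8% of all genes at their brightest tested probe. For those 3 all KO values lay below all WT values, beside 10.1% of all genes. These were Itga7, a laminin-binding integrin (difference -0.61, SE 0.22, limma adjusted p = 0.256), Cox4i2, a subunit of cytochrome oxidase (-0.16, limma adjusted p = 0.319), and Rgs4, a regulator of G protein signalling. Rgs4 was not well above background in KO and was at least 1.26-fold lower there. That bound rested on WT replicate 3, the highest array (-3.06), and was 1.06-fold without it. Rgs4 passed the filter only through the WT arrays, so its place in these counts is a description.

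Cd44 encodes the main receptor for hyaluronan. Its 3 probes cover positions up to 25.2 kb apart on chromosome 2 (mm9, minus strand) and are given by their first 30 bases, since each reads its own stretch of the gene.
Cd44 A_55_P2166488: acagatttcttcgacccaatctcacatcca
Cd44 A_55_P2166501: gacgagacccggaatctgcagagtgtggac
Cd44 A_55_P2912261: atattaactctataaaataaggctgtccct

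The Cd44 probe at chr2:102677971-102678030 (A_55_P2166488) read -3.04, -2.90 and -2.27 in WT and -2.63, -2.58 and -2.90 in KO, a difference of 0.03 (SE 0.21, limma adjusted p = 0.961). The probe at chr2:102654278-102654337 (A_55_P2166501) read 1.48, 1.51 and 1.77 in WT and 1.74, 1.70 and 1.90 in KO, a difference of 0.19 (SE 0.11, limma adjusted p = 0.456). The probe at chr2:102652758-102652817 (A_55_P2912261) read 2.99, 3.34 and 3.38 in WT and 3.10, 3.38 and 3.41 in KO, a difference of 0.06 (SE 0.14, limma adjusted p = 0.877). The groups overlapped at all 3 probes. The 95% intervals of the latter pair ran from -0.07 to 0.46 and from -0.27 to 0.40.

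Alcam encodes CD166, which binds itself and CD6 on T cells and is carried by stromal cells, osteoblasts and myeloid cells. Its 3 probes lie up to 56.1 kb apart on chromosome 16 (mm9, minus strand), and all 3 were higher on every KO array than on any WT array. They share a gene and the same 6 RNA samples, so they are not independent. Their first 30 bases are shown because the probes read different stretches of the gene.
Alcam A_51_P359272: agtaaactccctgaatgtctctgcgataag
Alcam A_55_P2742013: gtgacaactggcatatgccctctaacttcc
Alcam A_55_P2914546: cttgttggcaactagatacaggtttctaac

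The Alcam probe at chr16:52268908-52270785 (A_51_P359272), whose position spans 1878 bases for a 60-base probe, read 1.55, 1.29 and 1.70 in WT and 1.95, 1.95 and 1.92 in KO. Its difference was 0.42 (SE 0.11, 95% interval 0.15 to 0.70, limma adjusted p = 0.165), a level 1.34-fold higher in KO. The probe at chr16:52249270-52249329 (A_55_P2914546) read 3.54, 3.58 and 3.80 in WT and 3.90, 4.06 and 3.99 in KO. Its difference was 0.34 (SE 0.10, limma adjusted p = 0.180), or 1.27-fold. The dim probe of AY644766 at chr16:52305378-52305437 (A_55_P2742013) read -3.98, -3.95 and -3.70 in WT and -3.57, -3.17 and -3.25 in KO. Its difference was 0.54 (SE 0.13, limma adjusted p = 0.141), or 1.46-fold. With normexp background correction and quantile normalization the difference at this dim probe was 0.27. Without the 2 arrays with Xist signal the differences, in the order given here, were 0.51, 0.46 and 0.75. Thus the 3 probes gave 95% intervals above 0 in the fit of all 6 arrays, and none passed the adjusted threshold.

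Cd200 encodes a surface glycoprotein that restrains myeloid cells through the receptor Cd200r1. Its brighter probe (A_55_P2052062, mm9 chr16:45382387-45382446, minus strand) read 1.78, 2.39 and 2.00 in WT and 1.42, 1.70 and 1.33 in KO. All KO values were below all WT values. The difference was -0.57 (SE 0.18, 95% interval -0.99 to -0.15, limma adjusted p = 0.211), a 1.49-fold lower level in KO. The probe 12.4 kb away (A_51_P293110, chr16:45394810-45394869) read -2.58, -2.52 and -2.49 in WT and -2.74, -2.66 and -3.21 in KO, again without overlap. Its difference was -0.34 (SE 0.15, limma adjusted p = 0.337). With both Xist-positive arrays left out, the pair differed by -0.57 and -0.39. The first 30 bases of both are shown to tell them apart.
Cd200 A_55_P2052062: gtctttatagagtgacctaggaattcaagt
Cd200 A_51_P293110: aggaattgagaatagtaccgagagtcactt

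**Figure D3:**
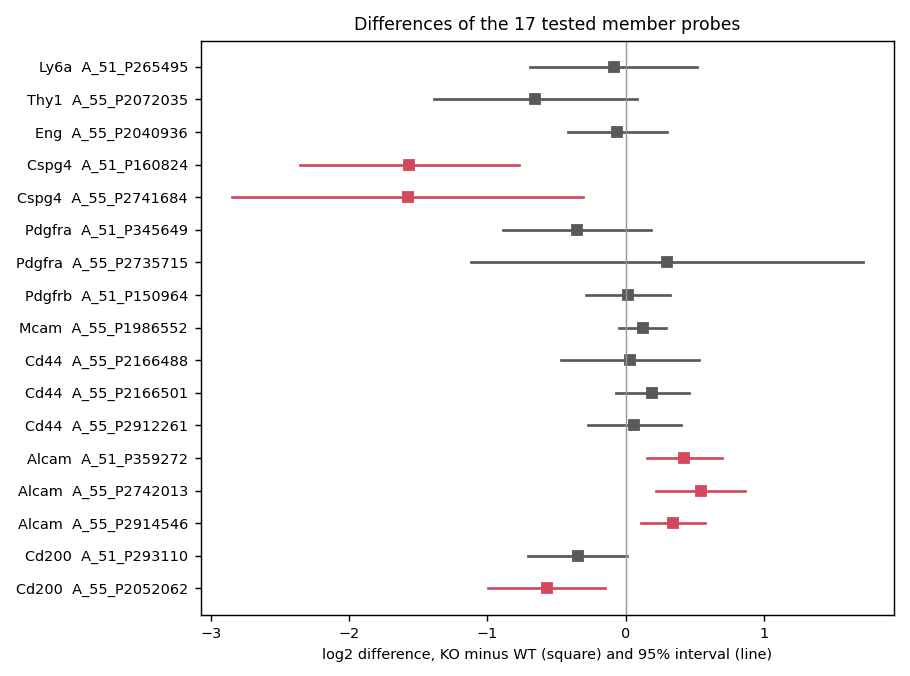
Difference in log2 level, KO minus WT (horizontal axis; square: estimate, line: 95% interval of the limma fit), for the 17 tested member probes, in red where the interval excludes 0 and without adjustment for the number of probes. The red intervals belong to Cspg4 and to 1 of the Cd200 probes below 0 and to the 3 Alcam probes above 0.

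Of 19 ligands and binding partners of Cd44, Alcam, Cd200 and Cspg4, 15 were tested and 10 had a higher mean in KO, with a median difference of 0.08. By limma 0 passed, and 2 of the 15 had an unadjusted p under 0.05, beside 14.8% of all genes. Mpdz, a PDZ scaffold that binds NG2, at its brightest probe read -0.75, -0.53 and -0.81 in WT and -1.08, -1.03 and -0.96 in KO, a difference of -0.33 (SE 0.10, limma adjusted p = 0.192). Its other tested probes overlapped between the groups, with differences of -0.017 and 0.28. Spp1, the Cd44 ligand osteopontin, read 7.50, 7.54 and 7.65 in WT and 7.74, 7.76 and 7.93 in KO, a difference of 0.25 (SE 0.09, limma adjusted p = 0.259). Itgax, an integrin of myeloid cells, differed by 0.60 (SE 0.25, limma adjusted p = 0.326), and its groups overlapped.

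Other stromal surface markers were read beside the members. Of 24, 22 were tested, each with signal well above background throughout, and 15 had a lower mean in KO, with a median difference of -0.10. By limma 0 passed and 4 of the 22 had an unadjusted p under 0.05, a share near the 14.8% of all genes at their brightest tested probe. Nt5e (CD73), an enzyme that makes adenosine and a standard marker of cultured stromal cells, read -0.10, 0.27 and -0.18 in WT and -1.08, -1.70 and -0.87 in KO. Its KO values lay wholly below WT, at a difference of -1.21 (SE 0.23, limma adjusted p = 0.0932). Fgfr1, a fibroblast growth factor receptor, differed by -0.54 (SE 0.14, limma adjusted p = 0.158), with KO replicate 2 lowest at 3.82. Cd9, a tetraspanin, differed by 0.18 (SE 0.07, limma adjusted p = 0.309) with all KO above all WT values. The integrin Itgb1, used in the sort, differed by -0.08 and overlapped.

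Markers of the other cell types that such a culture could hold were read next. All 20 macrophage and monocyte genes were tested, 19 of them stood well above background throughout, and 17 had a higher mean in KO at their brightest probe. Of these, Csf1r, Lyz2, Adgre1 and Itgam each had another probe with a lower mean. The list's mean level was 4.57 to 4.72 on WT and 4.71 to 4.85 on KO arrays, with a median difference of 0.12. By limma, 0 of the 20 were called and 1 had an unadjusted p under 0.05, beside 14.8% of all genes. Of 15 endothelial genes, 7 were tested. Tek, Tie1, Erg, Esam, Cldn5 and Sox18 were well above background on 0 arrays, Cdh5 on at most 2, and Pecam1 was dim (-3.91 to -3.16). Other endothelial genes were detected: 4 of the 7 were well above background on all 6 arrays. Among these were Vwf (0.50 to 0.98) and Kdr (-0.91 to -0.04). The tested endothelial genes had a mean level of -1.91 to -1.75 on WT and -2.62 to -1.61 on KO arrays. Of 11 lymphocyte genes 4 were tested, among them Cd3e (0.04 to 0.58), with mean levels of -0.25 to 0.01 on WT and -0.17 to -0.14 on KO arrays.

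Genes of the osteoblast lineage had the largest median difference of the lists. At their brightest tested probe, all 10 were well above background on all 6 arrays. There, 9 had all KO values below all WT values, beside 10.1% of all genes. The exception was Spp1. Other probes differed less for some genes: the 3 tested Runx2 probes ran from -1.24 to 0.07 in difference, and the 3 of Col1a1 from -0.90 to -0.14. The list's mean level was 4.17 to 4.51 on WT and 2.59 to 3.38 on KO arrays, with a median difference of -1.07. Ibsp, the bone matrix protein bone sialoprotein, fell from 5.31 to 3.58, a difference of -1.73 (SE 0.16, limma adjusted p = 0.0496). It was the 1 gene of the 10 that passed, beside 0.0627% of all genes. It did not pass with any 1 of the 6 arrays left out (limma adjusted p 0.0527 without KO replicate 2 to 0.112 without WT replicate 2), nor with the 2 arrays with Xist signal left out (0.122). It missed the threshold under 10 of the 16 alternatives, the others being the replicate block (limma adjusted p = 0.172), a term for Xist signal (0.0797) and no filter on dim probes (0.0772). Its difference lay between -1.83 and -1.60 under all 16. KO replicate 2 was lowest for the osteoblast list (2.59), as it was for Cspg4 (-0.48), Nt5e (-1.70) and Fgfr1. For Cd200 it was instead the highest KO array at both tested probes (1.70 and -2.66). The part of the osteoblast and macrophage markers in the differences of Cspg4, Cd200 and Alcam was not tested.

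**Figure D4:**
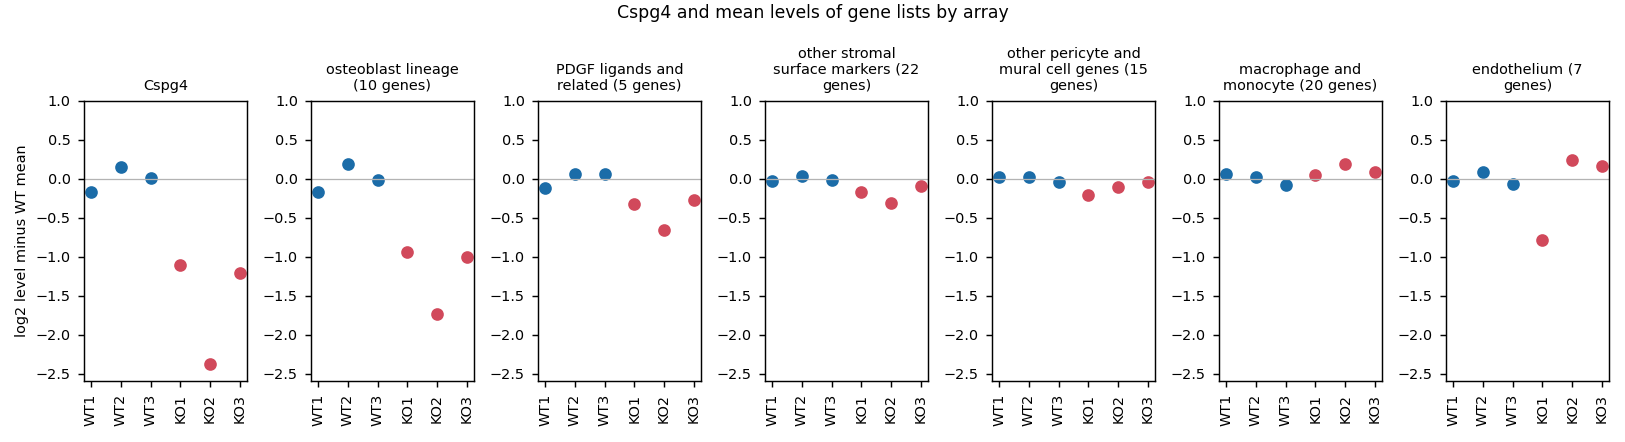
Level on each array minus the WT mean (vertical axis, log2) for the Cspg4 probe A_51_P160824 and for the mean of the tested genes of 6 gene lists, with WT arrays in blue and KO arrays in red. KO replicate 2 is lowest for Cspg4 (-0.48 in level) and for the osteoblast lineage (2.59), while the macrophage list lies between 4.57 and 4.85 on all arrays.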

How the data were processed

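The intensity of each spot is the scanner software's processed signal, per the file headers, which name Agilent Feature Extraction 10.7.1.1; the submitters' processing notes name version 9.1. The deposited series table holds log2 values with a median of 6.15 in every column and was used as an alternative. Probe positions are mm9, per the file headers, and exon or UTR was not assigned.

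From the files, log2 of the processed signal was set relative to the 75th percentile of its array, without control spots and outlier-flagged spots. The flagged spots numbered 49 to 72 on the WT arrays and 83 to 131 on the KO arrays. A probe was tested if all arrays of either group read it well above background (a share of at least 0.5 of its spots). Differences were fitted with limma 3.58.1 in R 4.3.3 (two-sided, 4 residual and 2.65 prior degrees of freedom), adjusted by Benjamini-Hochberg over all 28607 probes, threshold 0.05. The code was tested on simulated data. A listed gene is its brightest tested probe. All members were named, and of each list those past the threshold or up to 3 with the smallest p, with defining markers. Members and lists were chosen with earlier results of these data known.

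Description and extraction fields of the labels speak of human blood; titles, source names, organism and series text, which speak of mouse stromal cells, were followed. Same-numbered samples correlated at 0.0707, 0.218 and -0.0438 in their deviations, and differently numbered ones between -0.313 and 0.241. Same-numbered samples also shared a position within their slide rows. The labels do not say that a number pairs samples, so numbers were not taken as pairs and the replicate block was an alternative. Alternatives changed the background correction, scaling, filter, variance model, table, spots, block, Xist arrays and single arrays. No spot was saturated, and the number of arrays, 3 per group, limits the precision.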

Additional observations from a re-analysis of the deposited data

How the results depend on the processing

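By limma, 0 member probes were called under each of the 16 alternatives, with 5 to 8 at an unadjusted p under 0.05 and a lowest adjusted p between 0.0555 and 0.248. The share of all probes at that unadjusted p also varied. Without the 2 arrays with Xist signal, 5 of 17 member probes stood beside 3479 of all 28855. With a term for Xist signal it was 8 of 17 beside 4617 of 28607, and without a filter on dim probes 6 of 17 beside 18002 of 56605. Over all probes, 17 calls became 215 with normexp and quantile normalization, 220 with a variance trend, 101 with array median centring, and 9 when each of the 6 arrays had to be well above background. They became 0 without a filter on dim probes (18002 at an unadjusted p under 0.05), 0 with the replicate block (4648) and 0 with a term for Xist signal (4617), and the cause was not tested. Leaving out 1 array gave 2 to 31 calls: without WT replicate 3 there were 31, without WT replicate 1 there were 2, and without WT replicate 2 there were 4. Of the 17 tested member probes, 11 kept their sign under every setting run, among them Cspg4, Alcam, Cd200 and Mcam. The other 6 differed little from 0 or rested on 1 array: Cd44 A_55_P2166488 was -0.013 with normexp and quantile normalization, and Pdgfrb -0.0095 with array median centring. With 1 array left out, the range was -0.26 to 0.18 for Ly6a, -0.21 to 0.054 for Eng, -0.12 to 0.26 for Cd44 A_55_P2166488, -0.061 to 0.16 for Cd44 A_55_P2912261, -0.38 to 0.73 for Pdgfra A_55_P2735715 and -0.091 to 0.14 for Pdgfrb. A block for scan date was not run because there was 1 scan. Signals near background limit Thy1, the clone probes of Cspg4 and Pdgfra, the dim Alcam probe A_55_P2742013 and the 4 probes that were not tested.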

Other observations

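Of the 4 member probes that gave no signal well above background, those of Eng and Cd200 read higher on every KO array than on any WT array. The share of all untested probes that did so was not counted, so this is a description only. The Eng probe A_55_P2719799 read -6.67, -6.88 and -6.84 in WT and -4.88, -4.60 and -5.91 in KO, and the Cd200 probe A_55_P2720780 read -6.60, -6.82 and -6.77 in WT and -5.24, -6.24 and -5.87 in KO. The dim probes A_52_P539873 of Cspg4 and A_55_P2734892 of Pdgfra overlapped between the groups. The lowest signal well above background was also higher on the KO arrays, at -4.15, -3.99 and -3.60, than on the WT arrays, at -4.41, -4.62 and -4.59. Over all 56605 probes without a filter the median difference was 0.13, beside 0.02 over the tested ones.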
